A study of Mus musculus with 9 samples.

Results

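The mRNA of 37 genes of the actin cytoskeleton and the contractile apparatus was followed during the differentiation of 3T3-L1 cells. This mouse line resembles fibroblasts and turns into adipocytes upon induction. These genes were picked by symbol from the 19094 genes of the files. They comprised 10 genes grouped here as smooth muscle genes (Acta2, Actg2, Tagln, Cnn1, Tpm1, Tpm2, Myl9, Mylk, Cald1 and Lmod1). The next set held 16 genes that most cells use (Actb, Actg1, Tagln2, Cnn2, Cnn3, Tpm3, Tpm4, Myl6, Myl12a, Myh9, Myh10, Actn1, Actn4, Flna, Pfn1 and Cfl1). The others were the 2 striated muscle actins Acta1 and Actc1, 5 focal adhesion genes (Vcl, Zyx, Vasp, Tln1 and Pdlim7), the vimentin gene Vim, and Srf with the genes of its 2 cofactors, Mkl1 and Mkl2. The first of these sets is called smooth-muscle-type and the next one ubiquitous. These names mark the grouping and not where a gene is expressed. Smooth muscle and other forms of a gene were not told apart.

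RNA-seq was performed on 3 samples each of day 0, day 4 and day 8. Day 0 cells were near-confluent preadipocytes in complete medium, that is high-glucose DMEM with fetal bovine serum, L-glutamine, penicillin and streptomycin, which all groups received. Induction medium with dexamethasone, IBMX and insulin was applied for 2 days and replaced for 2 further days by maintenance medium, which held insulin, before the day 4 cells were taken. The day 8 cells were kept in maintenance medium for another 4 days. The cells of each stage were pooled and the samples were mixtures of RNA, so p-values measure the spread between these samples, which may be technical. All samples of day 4 and day 8 came from induced cells, so that the time in culture and the induction agents cannot be told apart. Day 4 was set against day 0 for the early phase, day 8 against day 4 for the late phase, and day 8 against day 0 for the whole process. The early phase and the whole process share their day 0 samples, and the late phase shares samples with both. The expected counts, which are the estimated numbers of reads per gene, summed to between 18216114 and 20452144 per sample.

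The labels call all samples adipocytes, and their extraction text names DRG as the tissue. Of 8 adipocyte markers (Adipoq, Plin1, Fabp4, Pparg, Cidec, Lep, Cfd and Lipe), the summed FPKM (a read count scaled to transcript length and sample depth) was 27.9, 30.2 and 27.5 in the day 0 samples, 4840, 5903 and 7051 at day 4, and 7302, 7829 and 7835 at day 8. The day 0 samples thus lacked the adipocyte marker level that their label would give. Of 7 markers of sensory neurons and glia, the summed FPKM was between 0.65 and 3.16 in the 9 samples. Most of the day 0 sum was Avil, with 2.62, 2.09 and 2.25 FPKM, which had 0.42 to 0.54 FPKM in the later samples. The 1 gene of this list that was tested had log2 fold changes of -2.11 early and -2.14 over the whole process. Rbfox3, a defining neuronal gene, did not exceed 0.05 FPKM. The extraction text was therefore not borne out by these markers.

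Actin filaments are polymers of actin monomers, and nonmuscle cells build them mainly from the beta and gamma isoforms encoded by Actb and Actg1. Fibroblasts can also bundle filaments with nonmuscle myosin II into contractile stress fibers, and they may then express the smooth muscle alpha actin Acta2. Many of these genes are targets of serum response factor (SRF), which binds a DNA element called the CArG box. Its cofactors, encoded by Mkl1 and Mkl2, are held in the cytoplasm by actin monomers and enter the nucleus when filaments form, which couples the state of the filaments to the transcription of their own components. Preadipocytes are spread cells with stress fibers, and rounding of the cells with a thin cortical actin layer is a known feature of adipogenesis.

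The CArG box is shown first, since it is the element by which SRF reads the promoters of this gene family. RefSeq start sites of the mouse genome (GRCm38.p6) were available for 34 of the 37 genes, with 40 windows in all, and the 250 bases before each start site were searched. The box is CC, then 6 bases that are each A or T, then GG, and it reads the same way on both strands. Actb, Tagln and Actg2 were not matched. A CArG box lay in 8 of the 40 windows (20%), against 1.47% of all 32851 windows of the same length. When a variant with 1 G or C among the 6 middle bases was also accepted, 14 windows (35%) of 13 genes held a match, against 8.59% of all windows. The stretches below run 5′ to 3′ on the strand of the gene, with the CArG box or variant in capitals, and were chosen because they belong to the genes with large falls that had a match (Acta2 and Myl9), to ubiquitous paralogs (Actg1 and Cnn2), to Srf itself and to the 1 gene upregulated over the whole process (Acta1). Acta2 is shown from chr19:34255374-34255482 (minus strand), Myl9 from chr2:156775278-156775399 (plus strand), Actg1 from chr11:120348551-120348610 (minus strand), Cnn2 from chr10:79988519-79988578 (plus strand), Srf from chr17:46556190-46556269 (minus strand) and Acta1 from chr8:123894814-123895005 (minus strand).
Acta2: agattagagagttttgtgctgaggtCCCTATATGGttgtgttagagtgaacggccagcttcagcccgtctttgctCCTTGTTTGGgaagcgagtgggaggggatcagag
Myl9: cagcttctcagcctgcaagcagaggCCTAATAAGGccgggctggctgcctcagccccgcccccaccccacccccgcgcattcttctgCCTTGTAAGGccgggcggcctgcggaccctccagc
Actg1: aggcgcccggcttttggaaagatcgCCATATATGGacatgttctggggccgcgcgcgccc
Cnn2: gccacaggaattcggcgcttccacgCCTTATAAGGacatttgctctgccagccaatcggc
Srf: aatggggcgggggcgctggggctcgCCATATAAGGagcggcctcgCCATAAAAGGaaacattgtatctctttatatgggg
Acta1: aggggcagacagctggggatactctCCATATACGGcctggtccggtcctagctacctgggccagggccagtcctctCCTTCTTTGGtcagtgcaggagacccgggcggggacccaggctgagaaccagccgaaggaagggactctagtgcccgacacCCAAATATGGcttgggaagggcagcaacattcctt
Acta2 had 2 variants and no box of the strict form, Myl9 had 1 box and 1 variant, and Srf had 2 boxes. Actg1 and Cnn2 each had 1 box. Acta1 had 1 box and 2 variants. A match is a description of the letters and not a measured binding site. Of the 6 genes downregulated in the early phase that had a window, 2 held a box or variant (Acta2 and Myl9), and of the 9 genes with no early difference at an adjusted p under 0.05, 5 did.

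In the early phase, none of the 37 genes was upregulated and 8 were downregulated, namely Acta2, Actg2, Tagln, Tpm1, Myl9, Flna, Myh9 and Zyx. Up- and downregulated genes had to exceed a 2-fold change with an adjusted p under 0.05 in edgeR's quasi-likelihood test. Of the 13154 genes tested, 9.77% were upregulated and 7.98% downregulated by the same rule (17.8% in either direction). None of the genes was upregulated in the DESeq2, edgeR exact or limma tests either, while 2 were higher at an unadjusted p under 0.05 in edgeR. One of the 37 genes, Cnn1, was not tested, because its counts were between 0 and 6 per sample. When the fold change was disregarded and the adjusted p had to be under 0.05, 25 of the 36 tested genes were lower at day 4, 2 (Mylk and Lmod1) were higher and 9 did not pass, while 33.7% of all tested genes were lower and 35.5% higher (69.2% in either direction). The median log2 fold change was -0.53 over the 36 genes and 0.02 over all genes tested. In bulk RNA, fewer cells of a type and less RNA per cell cannot be told apart. The genes together took 2.64% ± 0.111 (SD, n = 3) of all expected counts in the day 0 samples, against 1.67% ± 0.0641 at day 4 and 1.58% ± 0.0589 at day 8.

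In the late phase, 2 of the genes were upregulated (Myl9 and Acta1) and 1 was downregulated (Lmod1), beside 4.24% and 2.81% of all genes tested (7.05% in either direction). By the adjusted p alone, 13 were higher at day 8 than at day 4, 8 were lower and 15 did not pass, beside 22.5% higher and 22.7% lower among all genes (45.3% together). Their median log2 fold change was 0.04. Over the whole process, 1 gene was upregulated (Acta1) and 7 were downregulated (Acta2, Actg2, Tagln, Tpm1, Flna, Myh9 and Actn1), beside 10.3% and 7.70% of all genes tested (18.0% in either direction). By the adjusted p alone, 28 genes were lower at day 8 than at day 0 and 2 higher, beside 36.2% and 34.8% of all genes (71.0% together). By the same adjusted p, 11 genes were lower early, higher late and still lower over the whole process, a course taken by 4.73% of all genes tested. Another 10 genes were lower early and over the whole process with no late difference past the test (16.4% of all genes), and 3 genes (Actn1, Mkl2 and Vim) were lower at each step (5.64% of all genes). The samples of day 0 and day 4 did not overlap in 29 of the 36 genes (72.3% of all genes tested), those of day 4 and day 8 in 23 (54.5%), and those of day 0 and day 8 in 30 (75.5%).

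**Figure D1:**
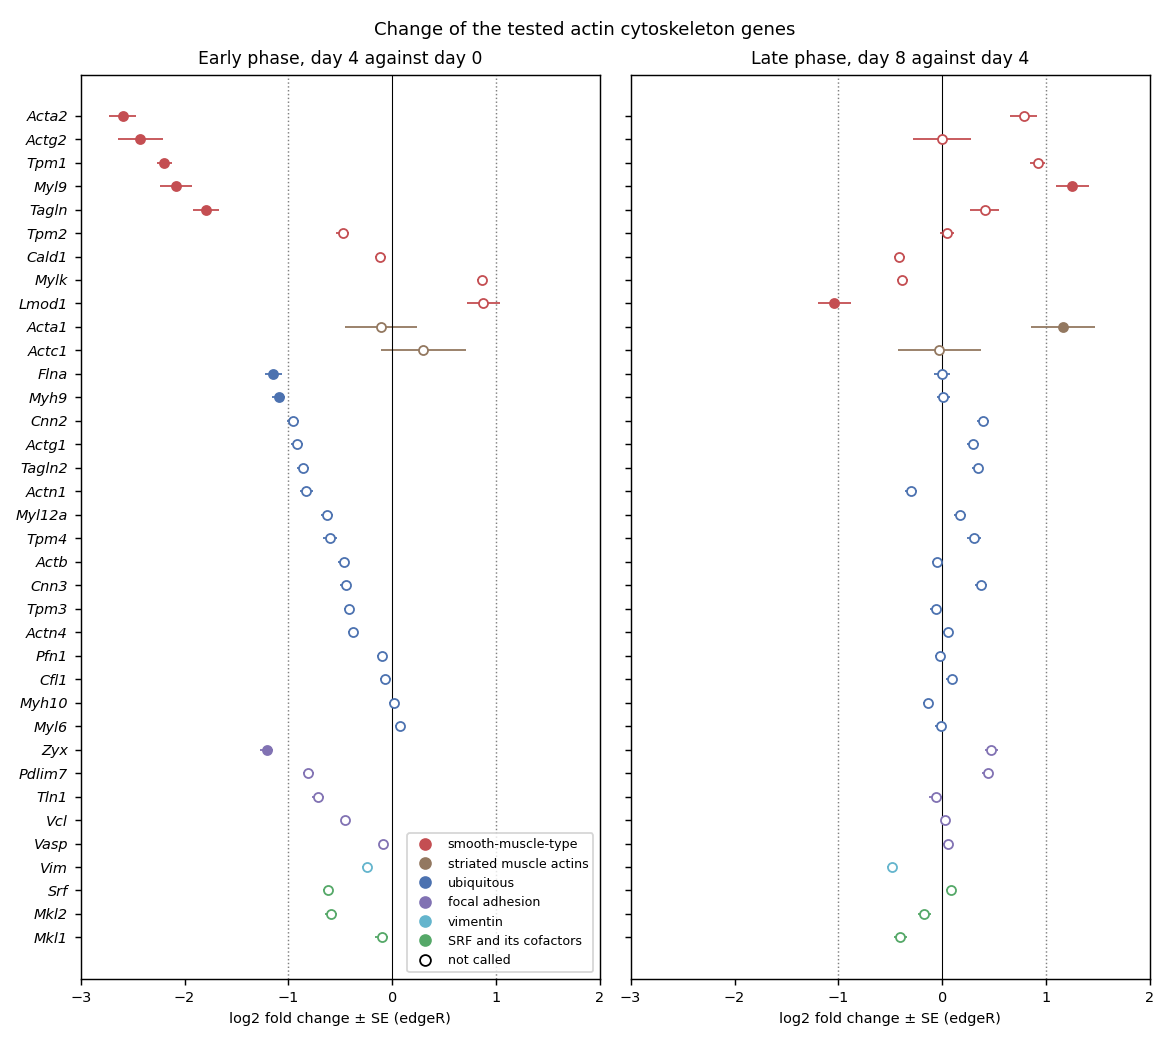
Log2 fold change with its standard error (x axis) of the 36 tested genes (y axis, colored by set) in the early phase (left) and the late phase (right). Filled points are called genes and dotted lines mark a 2-fold change. On the left, 5 smooth-muscle-type genes lie between -2.59 and -1.79, and on the right Myl9 lies at 1.26.

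The actins were led by the ubiquitous isoforms. Actb was listed with 1764, 2055 and 1895 FPKM at day 0, 1279, 1328 and 1337 at day 4, and 1279, 1243 and 1184 at day 8. All day 0 samples were above all later samples, and the late difference did not pass the test (log2 fold change -0.05, SE 0.05, adjusted p = 0.52). The early log2 fold change of Actb was -0.47 (SE 0.05, adjusted p = 1.1e-06), under the 2-fold threshold. The gamma actin gene Actg1 had 1439, 1614 and 1516 FPKM at day 0, 805, 789 and 720 at day 4, and 946, 884 and 921 at day 8. The 3 days of Actg1 did not overlap, with the lowest values at day 4 (log2 fold change -0.91 early, SE 0.06, adjusted p = 4.5e-10, and 0.29 late, SE 0.06, adjusted p = 0.00045). The separate level of Actg1 is uncertain, as 45.6% of all 50-base stretches in its transcripts are found in other genes too, mostly Gm12715.

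Acta2 (gene ID 11475), the smooth muscle alpha actin that marks contractile fibroblasts, showed the largest early fall of the 36 genes. It was listed with 277, 343 and 283 FPKM at day 0, 57.4, 49.9 and 35.2 at day 4, and 87.6, 77.7 and 72.9 at day 8. The days did not overlap, and day 8 lay between the other days. At day 4 the level was 16.6% of that at day 0, a log2 fold change of -2.59 (SE 0.13, adjusted p = 3.7e-11), and at day 8 it was 28.5% of day 0. The late rise of Acta2 was 0.78 on the log2 scale (SE 0.13, adjusted p = 0.00011), which is under the threshold of 2-fold. Actg2, the smooth muscle gamma actin of visceral muscle, had 5.50, 7.58 and 6.49 FPKM at day 0, 1.12, 1.44 and 0.88 at day 4, and 1.57, 0.75 and 1.02 at day 8. In contrast to Acta2, the day 4 and day 8 samples of Actg2 overlapped, and the fall was -2.43 on the log2 scale both early (SE 0.22, adjusted p = 4.6e-08) and over the whole process (SE 0.22, adjusted p = 4.7e-08). Both genes are well separated by sequence, with 0.326% of the stretches of Acta2 and 0% of those of Actg2 shared with other genes.

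The striated muscle actins were low. Acta1, the skeletal muscle alpha actin, had 0.87, 0.90 and 0.42 FPKM at day 0, 0.55, 0.89 and 0.50 at day 4, and 1.10, 1.28 and 1.82 at day 8. Every day 8 sample was above every earlier sample, and the log2 fold change was 1.16 late (SE 0.31, adjusted p = 0.0062) and 1.05 over the whole process (SE 0.31, adjusted p = 0.0057). These calls rest on 12.6 to 53.1 expected counts per sample. The late call was lost without day 4 replicate 3 (log2 fold change 1.00, just under the threshold) or day 8 replicate 3 (0.95), and the whole-process call without day 0 replicate 3 (0.78) or day 8 replicate 3 (0.84). Of 12 other settings, 5 also ended the whole-process call of Acta1. Its late call was kept in 10 of the 12. Actc1, the cardiac actin, was between 0.20 and 0.74 FPKM in the 9 samples, and its days overlapped with no adjusted p under 0.05.

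In order of mean FPKM, Actb, Actg1, Acta2, Actg2, Acta1 and Actc1 followed each other at day 0 and day 4. The samples of Acta1 and Actc1 overlapped at both days, and those of Actg2 and Acta1 at day 4. At day 8 Acta1 (1.10 to 1.82) stood ahead of Actg2 (0.75 to 1.57), and the samples of the 2 genes overlapped. The 6 actins summed to 3736 ± 268 FPKM (SD, n = 3) before induction, 2136 ± 38.0 by day 4 and 2235 ± 70.9 by day 8. The Acta2 share of this sum went from 8.04% ± 0.449 to 2.22% ± 0.503 and 3.55% ± 0.223 (exact permutation test over days, p = 0.00357, the smallest p that 280 divisions of the 9 samples allow). Actb went from 51.0% ± 0.331 to 61.6% ± 2.10 and 55.3% ± 1.02 (exact permutation p = 0.00357), and Actg1 from 40.8% ± 0.575 to 36.1% ± 1.60 and 41.0% ± 1.10 (exact permutation p = 0.0321). The actin mRNA pool thus shifted toward beta actin at day 4 and partly back at day 8. Over 6 shares tested, the Benjamini-Hochberg adjusted values were 0.0107 for Acta2 and Actb and 0.0386 for Actg1.

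**Figure D2:**
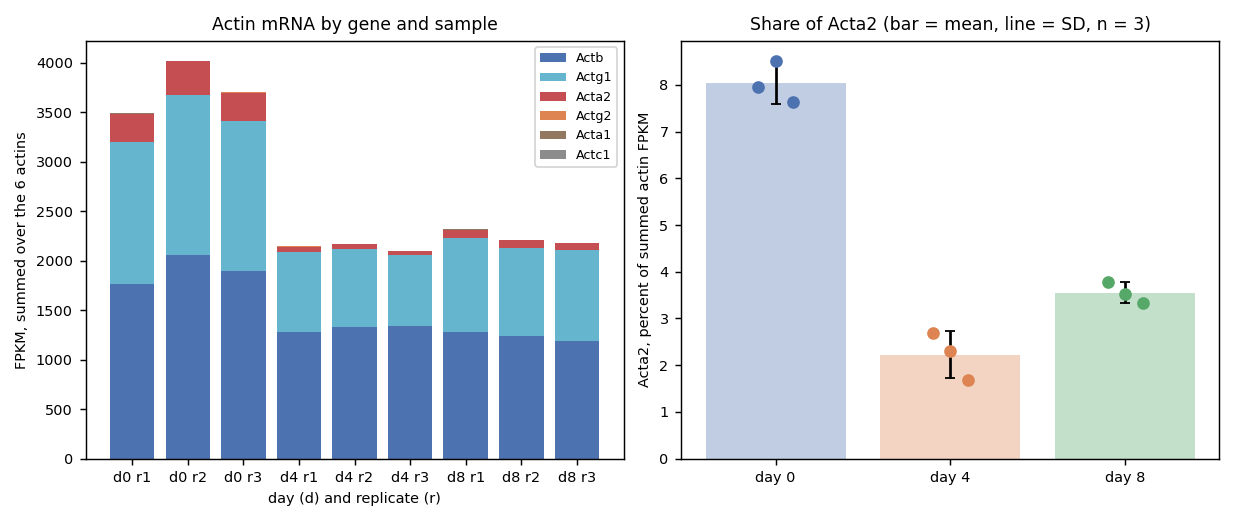
Left, FPKM of the 6 actins stacked by sample (d, day; r, replicate); right, Acta2 as a percent of the summed actin FPKM, with bars for the mean, lines for the SD (n = 3) and points for samples. The sum is 3487 to 4020 at day 0 and 2094 to 2315 later, and the Acta2 share is highest at day 0 and lowest at day 4.

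Tropomyosins are coiled-coil proteins that lie along the filament and set which myosins and severing proteins can bind. Tpm1, whose products include the muscle and the stress fiber forms, had 361, 418 and 396 FPKM at day 0, 88.8, 81.4 and 75.4 at day 4, and 163, 151 and 136 at day 8. The days were fully separated. Its log2 fold change was -2.20 early (SE 0.07, adjusted p = 2.1e-13), the smallest adjusted p among the 36 genes, and 0.92 late (SE 0.07, adjusted p = 3.2e-08), which exceeded 2-fold only when day 8 replicate 3 was left out (1.00). Tpm2, the other smooth-muscle-type tropomyosin, had 20.4, 21.7 and 23.4 FPKM at day 0, 13.6, 13.7 and 13.8 at day 4, and 15.6, 13.9 and 15.8 at day 8, with log2 fold changes of -0.48 early (SE 0.06, adjusted p = 5.3e-06) and 0.05 late (SE 0.06, adjusted p = 0.58). The ubiquitous Tpm3 and Tpm4 were lower at day 4 by -0.42 (SE 0.05) and -0.60 (SE 0.07) on the log2 scale (adjusted p = 2.3e-06 and 5.6e-07), and neither change reached 2-fold. Tpm4 was 0.31 higher late (SE 0.07, adjusted p = 0.0013), and Tpm3 did not pass the test late (-0.06, SE 0.05, adjusted p = 0.35). Of the stretches of Tpm3, 40.03% are shared with its copy Tpm3-rs7, so its level is uncertain.

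Transgelins and calponins are related actin-binding proteins. Tagln, a widely used marker of smooth muscle that bundles actin, had 15.1, 18.5 and 14.8 FPKM at day 0, 5.11, 4.74 and 3.46 at day 4, and 6.19, 5.66 and 5.29 at day 8. All days were separated, with a log2 fold change of -1.79 early (SE 0.12, adjusted p = 2.1e-09) and 0.41 late (SE 0.14, adjusted p = 0.024). Its level is uncertain, since 47.6% of its stretches also lie in other transcripts, mostly those of Gm48529. Tagln2, the ubiquitous transgelin, had 199, 221 and 195 FPKM at day 0, 112, 108 and 104 at day 4, and 139, 126 and 133 at day 8 (log2 fold change -0.86 early, SE 0.05, adjusted p = 6.7e-10). It was thus far more abundant than Tagln at every day, and its days were separated as well. Cnn1, the smooth muscle calponin, was listed between 0 and 0.15 FPKM and was at or near the floor of 3 counts per sample, so that no change was detectable at this depth. Cnn2 went from 298 ± 14.0 to 146 ± 9.95 and 186 ± 10.3 FPKM (SD, n = 3), with an early log2 fold change of -0.96 (SE 0.06, adjusted p = 2.7e-10) that lay just under the threshold. Cnn3 had 226, 234 and 238 FPKM at day 0, 174, 158 and 156 at day 4, and 219.9, 202 and 192 at day 8. Its early log2 fold change was -0.45 (SE 0.06, adjusted p = 2.1e-06), followed by 0.37 late (SE 0.06, adjusted p = 4.2e-05), and its difference over the whole process did not pass the test (-0.08, SE 0.05, adjusted p = 0.23). The level of Cnn3, and with it the ratio to Cnn2, is uncertain, as 26.0% of its stretches are shared with other genes.

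Myosin II pulls on actin filaments and is switched on by phosphorylation of its regulatory light chain. Myl9, the smooth muscle form of this light chain, had 19.6, 23.6 and 19.4 FPKM at day 0, 5.26, 5.34 and 3.44 at day 4, and 12.5, 11.4 and 8.64 at day 8. It was the 1 smooth-muscle-type gene that was called in both phases, in opposite directions, with log2 fold changes of -2.08 (SE 0.15, adjusted p = 4.0e-09) and 1.26 (SE 0.16, adjusted p = 1.0e-05). At day 4 it stood at 23.7% and at day 8 at 56.5% of day 0. The late call of Myl9 was kept in 11 of 12 other settings. The nonmuscle regulatory light chain Myl12a had 229, 262 and 239 FPKM at day 0, 153, 156 and 141 at day 4, and 171, 162 and 158 at day 8, with an early log2 fold change of -0.63 (SE 0.06, adjusted p = 3.8e-08). Of its stretches, 24.5% are shared with other genes, 18.8% with its close paralog Myl12b, so its level is uncertain. Myl6, the essential light chain of myosin II, was between 367 and 427 FPKM in all 9 samples, and no difference between its days had an adjusted p under 0.05.

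The heavy chains differed from each other. Myh9, which encodes nonmuscle myosin IIA, had 249, 242 and 238 FPKM at day 0, 118, 112 and 97.1 at day 4, and 112, 103 and 104 at day 8. It was downregulated early (-1.09 on the log2 scale, SE 0.06, adjusted p = 2.0e-10), and its day 4 and day 8 samples overlapped. The Myh9 calls, early and over the whole process, were lost when tested against a 2-fold change (glmTreat) and kept in 11 of 12 other settings. Myh10, which encodes nonmuscle myosin IIB, was between 30.2 and 33.4 FPKM in the 6 samples of day 0 and day 4 and between 26.6 and 27.2 FPKM at day 8. Its early difference of 0.01 (SE 0.04, adjusted p = 0.79) did not pass the test, and its late difference was -0.14 (SE 0.04, adjusted p = 0.017).

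Mylk and Lmod1 were the 2 smooth-muscle-type genes that were higher at day 4 than at day 0. Mylk encodes myosin light chain kinase, which phosphorylates the regulatory light chain, and had 12.4, 12.1 and 12.8 FPKM at day 0, 22.8, 21.7 and 20.7 at day 4, and 16.7, 16.0 and 15.8 at day 8. All days were separated, with log2 fold changes of 0.87 early (SE 0.05, adjusted p = 1.7e-10) and -0.38 late (SE 0.05, adjusted p = 9.2e-06), under the 2-fold threshold. Lmod1, a leiomodin that nucleates filaments in smooth muscle, had 1.28, 1.66 and 1.38 FPKM at day 0, 3.16, 2.39 and 2.01 at day 4, and 1.27, 1.08 and 1.2 at day 8. Day 4 was above both other days, with log2 fold changes of 0.88 early (SE 0.16, adjusted p = 0.0001) and -1.04 late (SE 0.16, adjusted p = 5.9e-05). The late call of Lmod1 was lost without day 4 replicate 1 (log2 fold change -0.85) or day 8 replicate 2 (-0.98). It was kept in 10 of 12 other settings. Without day 4 replicate 3 the early difference of Lmod1 passed the threshold (1.02). Cald1, caldesmon, which restrains the actin-activated motor, was the most abundant smooth-muscle-type gene at day 4 and day 8, with 260, 273 and 262 FPKM at day 0, 252, 227 and 221 at day 4, and 177, 171 and 161 at day 8. Its decline came late (-0.41 on the log2 scale, SE 0.05, adjusted p = 1.2e-05), and its early difference of -0.12 (SE 0.05, adjusted p = 0.067) did not pass the test.

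**Figure D3:**
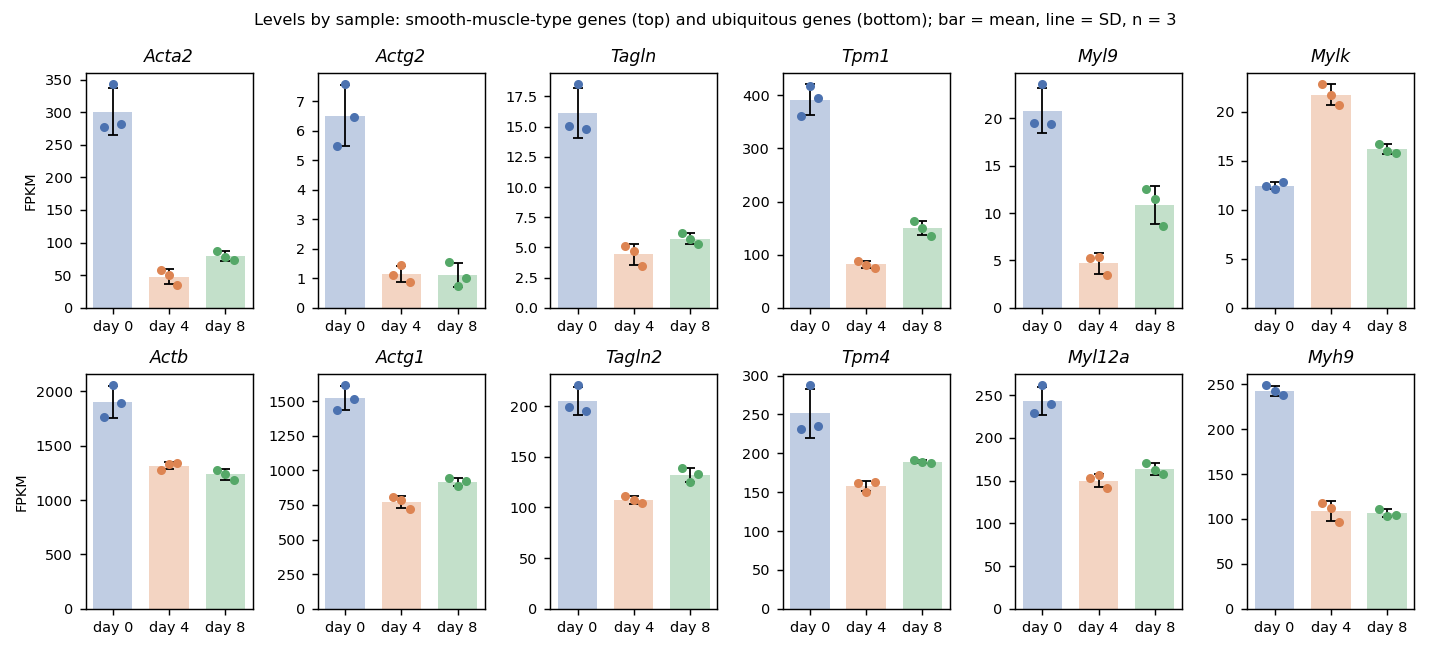
FPKM by day for 6 smooth-muscle-type genes (top) and 6 ubiquitous genes (bottom); points are samples, bars means and lines SDs (n = 3), and each panel has its own axis from 0. Acta2, Actg2, Tagln, Tpm1 and Myl9 lose most of their day 0 level by day 4, whereas Mylk is highest at day 4.

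Crosslinkers and filament turnover proteins followed different courses. Flna, filamin A, which holds filaments in orthogonal networks, went from 301 ± 12.1 to 129.8 ± 17.9 and 126 ± 7.18 FPKM (SD, n = 3). Its log2 fold change was -1.14 early (SE 0.08, adjusted p = 1.7e-09) and -0.00 late (SE 0.08, adjusted p = 0.98). With glmTreat against a 2-fold change, the Flna calls early and over the whole process were lost. Both were kept in 11 of 12 other settings. Actn1, an alpha-actinin of stress fibers, had 103, 112 and 104 FPKM at day 0, 59.4, 59.1 and 53.4 at day 4, and 49.0, 43.6 and 42.5 at day 8. It declined at both steps (-0.83 early, SE 0.06, adjusted p = 2.8e-09, and -0.30 late, SE 0.06, adjusted p = 0.00062) and was called over the whole process (-1.13, SE 0.06, adjusted p = 6.3e-11). Actn4, its paralog, was lower at day 4 by a smaller -0.38 (SE 0.05, adjusted p = 2.7e-06) and did not pass the test late (0.05, SE 0.05, adjusted p = 0.37). Pfn1 and Cfl1 encode profilin and cofilin, which feed monomers to and sever filaments. Pfn1 was between 664 and 860 FPKM and Cfl1 between 755 and 928 FPKM in the 9 samples. Their early log2 fold changes were -0.10 (SE 0.05, adjusted p = 0.091) and -0.07 (SE 0.05, adjusted p = 0.27). Over the whole process Pfn1 passed the test (-0.12, SE 0.05, adjusted p = 0.043), and Cfl1 did not (0.03, SE 0.05, adjusted p = 0.67). The level of Cfl1 is uncertain, with 20.7% of its stretches shared.

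At focal adhesions, the sites where stress fibers end, Zyx was downregulated early. It encodes zyxin, which is recruited under tension, and had 274, 272 and 258 FPKM at day 0, 116, 119 and 99.8 at day 4, and 157, 148 and 144 at day 8 (log2 fold change -1.21 early, SE 0.06, adjusted p = 4.4e-11, and 0.48 late, SE 0.06, adjusted p = 1.1e-05). Its days were separated, with the lowest at day 4. Pdlim7, a PDZ and LIM domain protein of stress fibers, had the same course at lower levels (-0.81 early, SE 0.05, adjusted p = 1.5e-09, and 0.44 late, SE 0.06, adjusted p = 8.5e-06). Tln1 and Vcl encode talin and vinculin, which link integrins to actin, and both were lower at day 4 (-0.71, SE 0.06, adjusted p = 1.8e-08 and -0.45, SE 0.05, adjusted p = 2.2e-07) without a late difference past the test (adjusted p = 0.41 and 0.62). The level of Vcl is uncertain, because 38.2% of its stretches are shared with the neighboring transcripts of Ap3m1. Vasp, which promotes filament elongation, was between 71.9 and 82.5 FPKM in all samples and did not pass the test (-0.08 early, SE 0.04, adjusted p = 0.099). Vim, the intermediate filament gene of mesenchymal cells, was the most abundant of the 37 genes at every day, with 2445, 2592 and 2586 FPKM at day 0, 2091, 2113 and 1957 at day 4, and 1489, 1394 and 1391 at day 8. Its days were separated, and its larger step was the late one (-0.24 early, SE 0.05, adjusted p = 0.00048, and -0.48 late, SE 0.05, adjusted p = 9.7e-07).

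Srf, the factor itself, had 25.9, 26.1 and 26.7 FPKM at day 0, 16.1, 16.8 and 16.1 at day 4, and 17.2, 16.6 and 16.5 at day 8. The day 0 samples were above all others, with a log2 fold change of -0.62 early (SE 0.04, adjusted p = 3.2e-09) and no late difference past the test (0.09, SE 0.05, adjusted p = 0.14). Mkl1 and Mkl2 encode the actin-regulated cofactors and differed in timing. Mkl1 had 26.5, 27.3 and 26.9 FPKM at day 0, 25.2, 25.6 and 21.2 at day 4, and 18.5, 16.7 and 17.4 at day 8, with differences of -0.10 early (SE 0.06, adjusted p = 0.17) and -0.40 late (SE 0.07, adjusted p = 0.0001). Mkl2 was already lower at day 4, from 11.6, 11.5 and 12.4 FPKM to 7.91, 7.71 and 6.94 (-0.59, SE 0.06, adjusted p = 2.2e-07), and had 6.49, 6.79 and 6.30 FPKM at day 8. By the adjusted p, both were lower over the whole process, by -0.50 and -0.76 on the log2 scale (adjusted p = 3.3e-06 and 1.1e-08).

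To compare smooth-muscle-type with ubiquitous paralogs directly, the log2 ratio of their FPKM was computed within each sample, which does not depend on the scaling between samples. Of 9 such pairs, 7 were lower at day 4 than at day 0 without overlap of samples. The pairs are not independent, as some share Acta2 or Actg1. Ratios with Actg1, Tagln, Tpm3 or Myl12a, here and below, are uncertain, like the levels of these genes. Each exact p below covers the 3 days together, and no single step between days was tested. The ratio of Acta2 to Actb was -2.67, -2.58 and -2.75 at day 0, -4.48, -4.73 and -5.25 at day 4, and -3.87, -4.00 and -4.02 at day 8, which is a change of -2.15 early (exact permutation test over days, p = 0.00357). The days were separated, with day 8 in between. The ratio of Tpm1 to Tpm4 turned from 0.645 ± 0.104 at day 0 to -0.951 ± 0.137 at day 4 and -0.340 ± 0.117 at day 8 (SD, n = 3, exact permutation p = 0.00357), so that Tpm1 was the more abundant of the pair only at day 0. Myl9 to Myl12a changed by -1.48 early and by 1.10 late, and stood at -0.38 from day 0 at day 8 (exact permutation p = 0.00357). Acta2 to Actg1 changed by -1.70 early and 0.51 late (exact permutation p = 0.00357).

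The ratios of Actg2 to Actg1 and Tagln to Tagln2 fell without a separated return. They changed by -1.53 and -0.95 early (exact permutation p = 0.0143 and 0.0286), and their day 4 and day 8 samples overlapped. Tpm2 to Tpm3 changed by only -0.18 early, with no overlap between day 0 and day 4 (exact permutation p = 0.0643). Cnn1 to Cnn2 and Cnn1 to Cnn3 were not read, as Cnn1 was at the floor. In all, 15 pairs were tested, and 12 had a p under 0.05, with Benjamini-Hochberg adjusted values of 0.0067 to 0.0357. Of the summed FPKM of both sets, the smooth-muscle-type genes made up 11.9% ± 0.132 (SD, n = 3) before induction, 7.26% ± 0.568 at day 4 and 7.67% ± 0.301 at day 8. Most of the smooth-muscle-type sum at day 4 was Cald1, with 252, 227 and 221 of 449, 408 and 375.5 FPKM.

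Ratios also shifted between paralogs within the ubiquitous set and between the 2 SRF cofactors. Myh9 to Myh10 changed by -1.11 early, and Actn1 to Actn4 by -0.45 early and by -0.36 late. Actb to Actg1 changed by 0.45 early. For each of these ratios, the exact permutation test over all days together gave p = 0.00357. Cnn2 to Cnn3 changed by -0.51 early (exact permutation p = 0.0179) and Mkl1 to Mkl2 by 0.48 early (exact permutation p = 0.00357). Tpm3 to Tpm4 overlapped between day 0 and day 4 and was lowest at day 8 (exact permutation p = 0.0179). This ratio missed the test when day 0 replicate 1 or any 1 of the day 8 samples was left out. Over the tested members of the sets, the median early log2 fold change was -1.79 for the 9 smooth-muscle-type genes and -0.53 for the 16 ubiquitous genes, beside 0.02 for all genes tested. Of these sets 5 and 2 genes were downregulated, beside 7.98% of all genes, and the share of the ubiquitous genes was near that background. By the adjusted p alone, 6 of the 9 and 12 of the 16 were lower, beside 33.7% of all genes.

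**Figure D4:**
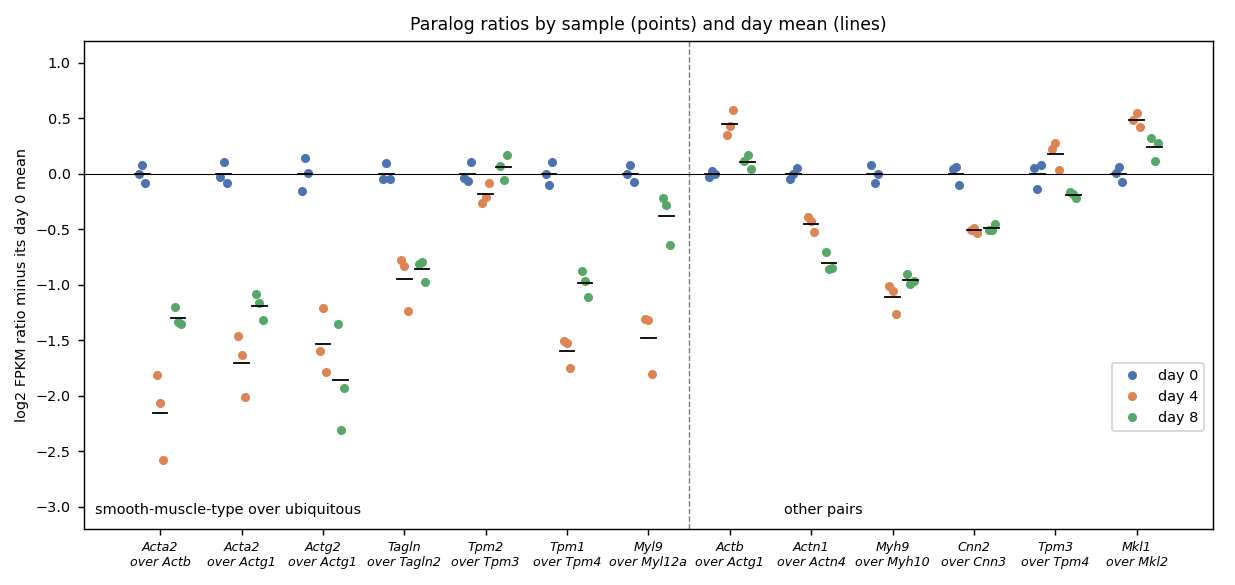
Log2 ratio of FPKM of 13 paralog pairs by sample, shown relative to the day 0 mean of each pair; points are samples colored by day and lines day means, and the dashed line parts pairs of smooth-muscle-type over ubiquitous genes (left) from pairs within the ubiquitous set and the SRF cofactors (right). Acta2 over Actb is lowest at day 4 (-2.15 from day 0) and Tpm2 over Tpm3 stays near 0.

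A further readout was the gene length in the files, which is the mean of the transcript lengths weighted by their abundance and changes only when the isoform mix changes. For 25 of the genes a single transcript is listed, so their isoforms could not be followed. Of the other 12, 3 had lengths that spread by more than 2% of their mean over the samples. Tpm2 had 2430, 2466 and 2403 bases at day 0, 2628, 2643 and 2690 at day 4, and 2436, 2425 and 2384 at day 8. The day 4 samples were above all others while day 0 and day 8 overlapped, so the isoform mix of Tpm2 differed at day 4, when its level was also lower (early log2 fold change -0.48, given above). Pdlim7 had 1905, 1889 and 1879 bases at day 0, 1750, 1709 and 1766 at day 4, and 1763, 1781 and 1781 at day 8, with day 0 above both later days. The lengths of Mkl2 overlapped between all days. Tpm1, with 10 listed transcripts, kept its length within 0.805%, so its large fall came without a shift in this measure.

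**Figure D5:**
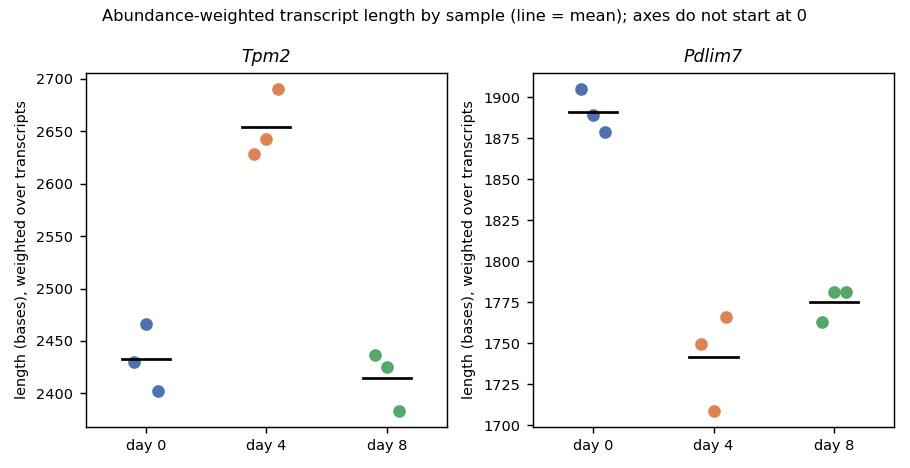
Abundance-weighted transcript length in bases of Tpm2 (left) and Pdlim7 (right) by day; points are samples and lines means, and the axes do not start at 0. Tpm2 is longest at day 4 (2628 to 2690 bases) and Pdlim7 at day 0 (1879 to 1905 bases).

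The wider actin machinery was read from 7 lists of 205 further genes, of which 175 were tested. In the early phase 14 were upregulated and 20 downregulated, with a median log2 fold change of -0.28, beside 9.77% and 7.98% of all genes tested. In the late phase 9 and 2 were called (median 0.02), beside 4.24% and 2.81% of all genes. Among 34 tested focal adhesion proteins, 6 rose and 3 fell early, among them Lims2 (3.42) and Kank1 (1.82), against Sorbs2 (-3.89) and Parvb (-1.63). Among 32 myosin genes and regulators, 3 rose and 3 fell, including the small GTPase genes Rhob (1.42) and Rnd3 (-1.49). Of 23 crosslinkers, 6 fell and 1 rose (Anln -1.75 and Swap70 -1.10, against Add3 1.02). Of 32 nucleators, 3 fell (Diaph3 -1.65 and Fmnl3 -1.26 among them), and of 26 monomer-binding, capping and severing proteins, 2 rose (Ssh2 1.19 and Limk1 1.09, which act on cofilin). Of 9 further SRF cofactors and regulators, 1 fell (Elk3, -1.26), and of 20 intermediate filament and tubulin genes, 2 rose and 4 fell (Krt19 2.03, Tuba4a -1.40). The values are early log2 fold changes from edgeR, and all those named passed the same test as above.

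Markers of other cells were read beside these results. The defining smooth muscle markers took different courses. Their summed FPKM, most of which was Smtn, was 23.9, 24.0 and 24.3 at day 0, 33.7, 34.0 and 29.4 at day 4, and 44.9, 41.2 and 45.4 at day 8. Smtn, smoothelin, was the most abundant of these 8 genes and went from 18.4 ± 0.26 to 26.1 ± 3.02 and 31.4 ± 1.96 FPKM (SD, n = 3), and Myh11, the smooth muscle myosin heavy chain, from 0.167 ± 0.0153 to 1.18 ± 0.224 and 1.82 ± 0.118 FPKM (early log2 fold change 2.90, SE 0.18, adjusted p = 6.6e-10). Myocd, the cofactor that defines the lineage, did not exceed 0.07 FPKM. Of the 6 tested, 1 was upregulated early (Myh11) and 2 were downregulated, namely Sorbs2, with log2 fold changes of -3.89 early and 2.78 late, and Synpo2 (-2.45 early), beside 9.77% and 7.98% of all genes. Over the whole process 3 were upregulated, namely Myh11 (3.57), Ldb3 (2.55) and Des (1.25), beside 10.3% of all genes. Downregulated were 2, beside 7.70%, namely Sorbs2 and Synpo2, the latter near the floor at day 8. The summed FPKM of 8 listed skeletal or heart muscle markers was 0.99 to 3.27, and that of 4 endothelial markers 0.18 to 0.50. That of 6 macrophage markers was 4.99 to 8.96, with Cd14 at 2.34 to 4.94 and Adgre1 at most 0.03. Of 4 tested macrophage markers, 1 was downregulated early and 1 upregulated late (4.24% of all genes). Of 3 tested skeletal or heart muscle markers, 1 was downregulated in each comparison (7.98%, 2.81% and 7.70% of all genes). The 1 tested endothelial marker was upregulated late (1.01) and over the whole process (1.10). The 8 preadipocyte or fibroblast markers summed to 3577, 3777 and 3819 FPKM at day 0, 2747, 2706 and 2565 at day 4, and 3863, 3752 and 3783 at day 8, so that this sum was also lowest at day 4. Its largest part was Col1a1, with 1545, 1498 and 1576 FPKM at day 0, 1321, 1345 and 1233 at day 4, and 2281, 2249 and 2280 at day 8. Other members went different ways, with early log2 fold changes of -2.13 for Dlk1, -1.90 for Ly6a and 0.84 for Pdgfra. Within day 4, replicate 3 had the highest adipocyte marker sum and the lowest Acta2, Actg2, Tagln, Tpm1 and Myl9. The part of the adipocyte share in these results was not tested. All 8 early calls were kept when any 1 of the 9 samples was left out, day 4 replicate 3 included, and the log2 fold change of Acta2 then lay between -2.75 and -2.42.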

How the data were processed

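The files of 9 samples (3 per day, grouped by sample title) were used. The authors filtered their reads, mapped them with HISAT/Bowtie2 and quantified genes with RSEM; the submitters' processing notes also name CASAVA 1.4. The genome build and annotation are not given in the sources used here, nor whether counting used strand. The labels and the methods name different sequencing platforms. The expected counts deposited by the authors are estimates without normalization (29.8% not whole). In the deposited FPKM, the authors had corrected counts for transcript length and depth (lowest value above 0, 0.01).

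Expected counts were rounded and tested with edgeR 4.0.16 in R 4.3.3 (filterByExpr by day, TMM factors, glmQLFit and glmQLFTest, 1 coefficient per day, Benjamini-Hochberg adjustment over 13154 genes); the SE is the log2 fold change over the square root of F. No replicates were merged, since each pair differed beyond counting noise (chi-square per gene 2.40 to 10.7). Floors (3 counts) cover counting error only. Ratios used FPKM with a pseudocount of 0.01 and exact permutation of an F statistic over days, without a direction. Each such p covers the 3 days together and not a single step between days. Stretches of 50 bases came from GENCODE vM21, and more than 20% shared with other genes made a level uncertain (7 genes).

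The genes, pairs and lists were chosen with earlier results of these data known. All 37 genes and all markers may be named. From each list of further genes, the 3 largest rises and falls per comparison may be named, if the average log2 CPM was 1 or more. Alternatives were other scalings (RLE, upper quartile, library size), other filters, DESeq2 1.42.0, edgeR's exact test and glmTreat, limma 3.58.1 on log2(FPKM + 1) and log2(FPKM + 0.1), a model of the 6 samples compared, a replicate block and leaving out each sample. The steps were tested on simulated data. Some genes covered by this naming rule are not reported here.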

Additional observations from a re-analysis of the deposited data

How the results depend on the processing

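No called value changed direction under any alternative. The 8 genes downregulated early were kept without each of the 9 samples, and 6 of them under all other settings; against a fold change of 2 by glmTreat, Flna and Myh9 were lost both early and over the whole process, for which 5 of 8 calls were kept under all other settings. With the adjusted p alone, 2 genes were higher and 25 lower early, 13 and 8 late, and 2 and 28 over the whole process. The 2 late rises became 0 with glmTreat and 1 with limma on log2(FPKM + 1), the 1 late fall became 0 with both, and the 1 rise over the whole process (Acta1) became 0 with upper-quartile factors, library size alone, glmTreat and both limma fits. Without 1 sample, early rises numbered 0 to 1, late rises 1 to 2, late falls 0 to 1 and whole-process rises 0 to 1. Cnn2 became an early fall with upper-quartile factors (-1.01), library size alone (-1.02), both limma fits and without day 4 replicate 1. The cause was not tested. Library size alone moved the median of all genes by -0.11 over the whole process.

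Among ratios (early change), Cnn1 over Cnn2, read from counts at the floor, passed the test with a pseudocount of 0.1 (1.27, exact p = 0.025), and its values without 1 sample ranged from 0.93 to 2.72. Those of Tpm2 over Tpm3 ranged from -0.24 to -0.13 (it passed without day 0 replicate 3 or day 8 replicate 2), those of Tpm3 over Tpm4 from 0.11 to 0.25 (it missed without day 0 replicate 1 or any day 8 sample, exact p = 0.05 to 0.0536), and those of the Actc1 share from 0.0060 to 0.019 percentage points (it passed without day 4 replicate 2). Whether the replicate numbers of the titles pair the samples was not settled. The mean correlations of deviations were 0.0307 for the same and -0.0154 for different numbers, and their difference was not tested. With the replicate block, the member counts were the same (8 early falls, 2 late rises, 1 late fall, 1 rise and 7 falls over the whole process), and exact tests within numbers (smallest p 0.0278) gave p = 0.0833 for Actg2 over Actg1 (-1.53), Tagln over Tagln2 (-0.95), Cnn2 over Cnn3 (-0.51) and Tpm3 over Tpm4 (0.18), p = 0.111 for the shares of Actg1 (-4.70) and Actg2 (-0.12), and p = 0.0278 for Tpm2 over Tpm3 (-0.18).

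Counts over all genes also moved by more than 1.5 times: early, 1285 higher became 831 with at least 10 counts in every sample and 708 with limma on log2(FPKM + 1), and 1050 lower became 664 with glmTreat and 565 with that limma fit; late, 558 higher became 310, 248 and 224 and 370 lower became 173, 129 and 136 with the count filter, glmTreat and that limma fit; over the whole process, 1356 higher became 753 with that limma fit and 1013 lower became 571 with glmTreat and 528 with that limma fit. The depth limits Cnn1, Actc1 and Acta1 most.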
